A study of Rattus norvegicus with 6 samples.

Results

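The Hippo pathway genes described here are 10 genes, 4 transcriptional targets of the coactivator YAP (Ctgf, Cyr61, Ankrd1 and Amotl2) and 6 components of the pathway itself (Yap1, Wwtr1, Tead1, Lats1, Lats2 and Nf2). They were taken by symbol from the 15677 distinct symbols in the files, where all 10 were present, and all 10 had enough reads to be tested. The 3 HIP libraries (HIP30, HIP2 and HIP3) came from transgenic rats that express human islet amyloid polypeptide, and the 3 WT libraries (WT26, WT1 and WT4) from rats without the transgene. Both groups were Sprague-Dawley, the HIP rats are called pre-diabetic in the design, and the sources used here give neither age nor sex. The transgene is known to be driven by an insulin promoter and so is active in beta cells. The tissue sampled was the pancreatic duct gland, a mucous outpouching of the larger pancreatic ducts, which was recognised by morphology and cut out by laser capture before total RNA was sequenced. The labels do not say whether each library is a separate animal, so a p-value here weighs only how much the 6 libraries vary, part of which may come from handling.

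Hippo signalling is a kinase cascade that restrains growth and senses cell contact and tension. The scaffold merlin, encoded by Nf2, helps to bring the kinases LATS1 and LATS2 to the membrane, and active LATS kinases phosphorylate YAP and its paralog TAZ, encoded by Wwtr1, which are then kept in the cytoplasm or degraded. Unphosphorylated YAP and TAZ enter the nucleus and bind TEAD factors such as TEAD1, which recognise the DNA element GGAATG, to switch on genes such as Ctgf, Cyr61, Ankrd1 and Amotl2. Amotl2 and Lats2 are also brakes on YAP, so that the pathway feeds back on itself. In the pancreas YAP is known from duct cells and stroma and is low in mature endocrine cells. RNA levels do not show the phosphorylation or location of YAP, which is where the pathway is mainly controlled.

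Levels are given as CPM, the reads of a gene scaled to a common library total, with totals of 15141136 to 17574682 reads per library. One read was worth 0.0569 to 0.066 CPM. Differences are given as HIP minus WT on the log2 scale of CPM after TMM scaling, with 2 reads of an average library added, which understates the change of genes with few reads. The duct marker Krt19 ran from 1540 to 2253 CPM in HIP and from 1887 to 6991 CPM in WT, and none of the 9 listed duct epithelium markers was without reads in any library. Libraries of a group were unlike each other in other cell types and in dividing cells. The summed CPM of 5 beta cell genes was 0, 154 and 4930 in HIP30, HIP2 and HIP3 and 0, 87.2 and 11745 in WT26, WT1 and WT4. Where a gene had 0 reads, its upper limit was 0.198 CPM in HIP30 and 0.171 CPM in WT26 (3 reads, counting error only). The 11 listed mitosis genes summed to 108 and 402 CPM in HIP30 and HIP2, to 2180 CPM in HIP3, and to between 1541 and 2212 CPM in WT. Summed markers overlapped between the groups for acinar cells (29.3 to 92.6 CPM in HIP and 22.5 to 78.0 CPM in WT), myeloid cells (432 to 539 CPM in HIP and 379 to 574 CPM in WT) and mesothelium (24.1 to 70.4 CPM in HIP and 0.228 to 60.3 CPM in WT). Much of the myeloid sum was Cd14, at 233 to 273 CPM in HIP and 233 to 308 CPM in WT. Cd14 had a negative difference, and the other 7 of the 8 tested myeloid genes a positive one, with a median of 0.62 over the 8. Over all genes 48.9% were negative. By limma 1 of the 8 had an unadjusted p under 0.05, with the higher level in HIP, where 3.29% of all genes did. After adjustment 0 did.

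The promoters of the target genes were searched for the element that TEAD factors recognise. RefSeq sequences of the GRCr8 build held promoters for 7 of the 10 genes, with Ctgf and Cyr61 under their current symbols Ccn2 and Ccn1, and none for Ankrd1, Tead1 and Lats2. The 250 bases before the annotated start were searched on both strands for GGAATG and its reverse complement CATTCC, which are shown in capitals below. The windows are chr1:22624615-22624864 on the minus strand for Ctgf, chr2:237225690-237225939 on the minus strand for Cyr61 and chr8:112182376-112182625 on the plus strand for Amotl2, all GRCr8 and written 5′ to 3′ toward the gene. The first pair is shown because these genes had the lowest levels in the same HIP libraries, and the last because it is a target that did not share that pattern.
Ctgf: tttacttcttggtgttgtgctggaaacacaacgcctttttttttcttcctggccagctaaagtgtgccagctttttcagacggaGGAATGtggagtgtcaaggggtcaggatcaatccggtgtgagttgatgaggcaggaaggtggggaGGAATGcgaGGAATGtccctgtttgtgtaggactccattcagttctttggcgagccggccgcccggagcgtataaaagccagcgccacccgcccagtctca
Cyr61: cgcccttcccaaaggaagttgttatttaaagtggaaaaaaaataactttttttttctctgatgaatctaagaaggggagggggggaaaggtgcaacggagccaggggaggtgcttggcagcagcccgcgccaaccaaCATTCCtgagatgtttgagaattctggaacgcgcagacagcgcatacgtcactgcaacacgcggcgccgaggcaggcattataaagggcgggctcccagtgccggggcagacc
Amotl2: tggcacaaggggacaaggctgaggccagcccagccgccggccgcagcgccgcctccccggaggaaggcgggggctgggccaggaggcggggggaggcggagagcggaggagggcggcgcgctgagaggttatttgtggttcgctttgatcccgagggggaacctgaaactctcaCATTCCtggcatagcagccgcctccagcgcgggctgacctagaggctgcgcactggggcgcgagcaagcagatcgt

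Ctgf had 3 such matches, which begin 166, 101 and 92 bases before the start. Cyr61 had 1, at 113 bases, and Amotl2 had 1, at 76 bases. Of 33469 promoter windows of the same length 12.1% held at least 1 match and 27 (0.0807%) held 3 or more. Yap1 also held 1 match, at 116 bases, while Wwtr1, Lats1 and Nf2 held none in this window. No member window held the AP-1 element TGAGTCA or its complement TGACTCA, found in 4.05% of windows, or a CArG box, found in 1.5%. A match is a description of the letters and not a bound site.

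The secreted targets Ctgf and Cyr61 had their lowest levels in HIP glands, and those levels differed widely among the HIP libraries. Ctgf, which encodes a matrix-associated protein that promotes adhesion and fibrosis, had 2.58 CPM in HIP30, 9.19 CPM in HIP2 and 26.5 CPM in HIP3, against WT levels of 26.2 CPM (WT26), 32.4 CPM (WT1) and 44.4 CPM (WT4). HIP30 and HIP2 lay far below each WT library, while HIP3 stood beside WT26. In reads these were 39, 148 and 442 in HIP and 461, 565 and 702 in WT. The 39 reads of HIP30 give an exact 95% Poisson interval of 1.83 to 3.52 CPM, which covers counting error only, since no molecular identifiers are named for these reads. The groups met by 1 library in CPM and separated narrowly after TMM scaling. Ctgf averaged 12.7 ± 12.3 CPM in HIP and 34.3 ± 9.22 CPM in WT (SD, n = 3 each). The log2 difference was -2.02 ± 0.76 (SE), which is a level in HIP of 0.247 times that in WT with a 95% interval of 0.0736 to 0.829. In captured tissue, fewer cells of a type and less RNA per cell cannot be told apart.

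Cyr61, which encodes the related matrix protein of the CCN family and is induced within minutes of serum or strain, had 7.07 CPM in HIP30, 14.4 CPM in HIP2 and 31.1 CPM in HIP3, against WT levels of 55.9 CPM (WT26), 26.6 CPM (WT1) and 39.8 CPM (WT4). The order within HIP was that of Ctgf, and HIP3 lay above WT1, so the groups overlapped. Cyr61 averaged 17.5 ± 12.3 CPM in HIP and 40.7 ± 14.7 CPM in WT (SD, n = 3 each). The log2 difference was -1.47 ± 0.55 (SE), which is a level in HIP of 0.361 times that in WT with a 95% interval of 0.149 to 0.875. Within WT the 2 genes did not share their highest library, which was WT4 for Ctgf and WT26 for Cyr61.

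Neither gene passed the test over all 12102 genes. The unadjusted p was 0.0287 for Ctgf and 0.0291 for Cyr61, and the limma p after Benjamini-Hochberg adjustment was 0.691 for both. They were the 375th and 384th genes by unadjusted p. An exact two-sided permutation test of 3 against 3 libraries gave p = 0.10 for Ctgf, the smallest it can give, and 0.20 for Cyr61. Of all genes tested, limma and limma-voom each called 0 (0%) at an adjusted p of 0.05, and 792 and 914 genes had an unadjusted p under 0.05. By limma-voom that is 7.55% of genes and by limma 6.54%, of which 3.26% had the lower and 3.29% the higher level in HIP.

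HIP30 carried much of the size of both differences. Without HIP30 the log2 difference of Ctgf was -1.12 and that of Cyr61 -0.902, and without HIP3 the values were -2.86 and -2.05. Between HIP30 and WT26, the libraries with the high title numbers, Ctgf differed by -3.47 and Cyr61 by -3.15. Among the libraries numbered 1 to 4, Ctgf differed by -1.29 and Cyr61 by -0.629. The titles do not say what the numbers mean. All 19 other settings kept the negative sign of both genes, and the lowest adjusted p of limma among them was 0.148.

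**Figure D1:**
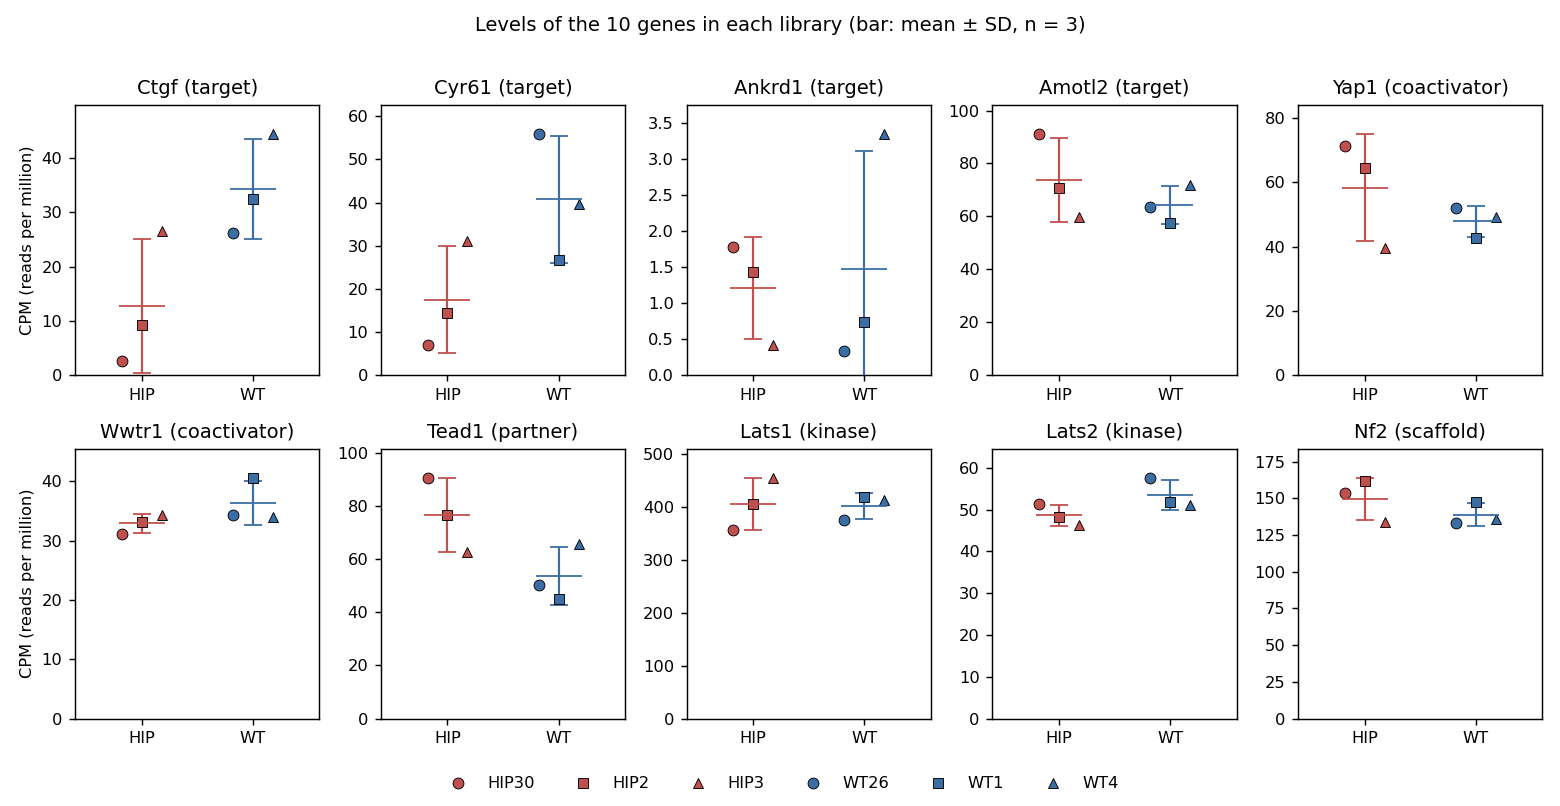
CPM of each of the 10 genes (one panel per gene, linear axis from 0) in the 3 HIP and 3 WT libraries, with horizontal bars for the mean and whiskers for the SD (n = 3). Ctgf and Cyr61 are lowest in HIP30 (2.58 and 7.07 CPM) and HIP2, while HIP3 lies within reach of the WT libraries, and the lower whisker of Ankrd1 in WT is cut off at 0.

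The summed levels of fibroblast, smooth muscle, duct epithelium, immediate early and mitosis genes were lowest in HIP30 and HIP2. These libraries also had the lowest Ctgf and Cyr61. The 9 duct epithelium genes summed to 10103 CPM in HIP30, 9477 CPM in HIP2 and 12482 CPM in HIP3. Their WT sums were 25789 CPM (WT26), 13794 CPM (WT1) and 10392 CPM (WT4). Of these 9 genes 6 had a negative and 3 a positive difference, beside 48.9% negative over all genes. By limma 2 were higher in HIP at an unadjusted p under 0.05, beside 3.29% of all genes. After adjustment none passed. The 11 listed genes of fibroblasts and stellate cells summed to 550 CPM in HIP30, 931 CPM in HIP2 and 2178 CPM in HIP3, against WT sums of 1581 CPM (WT26), 2167 CPM (WT1) and 2626 CPM (WT4). HIP30 and HIP2 were the lowest here too, and HIP3 lay among the WT libraries. All 11 had a negative log2 difference, where 48.9% of all genes did, and 7 of them had an unadjusted p under 0.05, where 3.26% of all genes did with the lower level in HIP. None passed the adjusted threshold, and the median was -1.07 beside 0.0097 over all genes. The marker lists were chosen with earlier results of these data known, so their counts are a description and not a test. This list holds Dpt, the 1st of all genes by unadjusted p (limma, 0.000654, adjusted p = 0.691). Single genes departed from the order of the sums, as Dpt, picked after its values were seen, had 125, 85.1 and 108 CPM in HIP30, HIP2 and HIP3 and 236, 173 and 224 CPM in WT26, WT1 and WT4. No marker of this list was without reads in any library. The collagen gene Col1a1 had 44.5, 135 and 613 CPM in HIP30, HIP2 and HIP3, against 313, 397 and 614 CPM in WT26, WT1 and WT4.

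The 10 smooth muscle and pericyte genes summed to between 362 and 510 CPM in HIP and between 482 and 589 CPM in WT. Of the 9 tested 8 had a negative difference, beside 48.9% of all genes. By limma 2 were lower in HIP at an unadjusted p under 0.05, beside 3.26% of all genes. None of the 9 passed the adjusted threshold. Acta2, the actin of smooth muscle and activated stellate cells, had 1.06, 1.61 and 9.69 CPM in HIP30, HIP2 and HIP3, against 10.6, 6.36 and 12.3 CPM in WT26, WT1 and WT4. The 9 endothelial genes summed to between 173 and 247 CPM in HIP and between 155 and 302 CPM in WT, so HIP lay within the WT range there.

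The 16 listed immediate early genes, which respond within minutes to serum, stress and tissue handling, summed to between 1226 and 1596 CPM in HIP and between 1838 and 2139 CPM in WT, with no overlap. Of these 16 genes 13 had a negative difference, beside 48.9% of all genes, and 7 had the lower level in HIP at an unadjusted p under 0.05, beside 3.26% of all genes. None passed the adjusted threshold, and the median was -0.61. Jun, also picked after its values were seen, went the other way, with 414, 414 and 321 CPM in HIP30, HIP2 and HIP3 and 176, 213 and 395 CPM in WT26, WT1 and WT4. The summed mitosis genes stood at 5.87%, 21.9% and 119% of the WT mean in HIP30, HIP2 and HIP3. All 11 mitosis genes had a negative difference, beside 48.9% of all genes. At an unadjusted p under 0.05 there were 2 with the lower level in HIP, beside 3.26% of all genes. None of the 11 passed the adjusted threshold. Their median was -3.15, and 6 were without reads in HIP30. The part of stromal content, of duct epithelial content, of the immediate early response and of dividing cells in the Ctgf and Cyr61 differences was not tested. Set against the fibroblast list, a scale chosen after the values were seen, Ctgf had 4.68, 9.87 and 12.1 reads per 1000 list reads in HIP30, HIP2 and HIP3 and 16.6, 14.9 and 16.9 in WT26, WT1 and WT4. On that scale the highest HIP value of Ctgf, 12.1, lay below the lowest WT value, 14.9. How many of all genes would separate on that scale was not tested. Cyr61 had 12.8, 15.5 and 14.3 reads per 1000 in HIP30, HIP2 and HIP3 and 35.4, 12.3 and 15.1 in WT26, WT1 and WT4, so that WT26 alone stood apart.

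**Figure D2:**
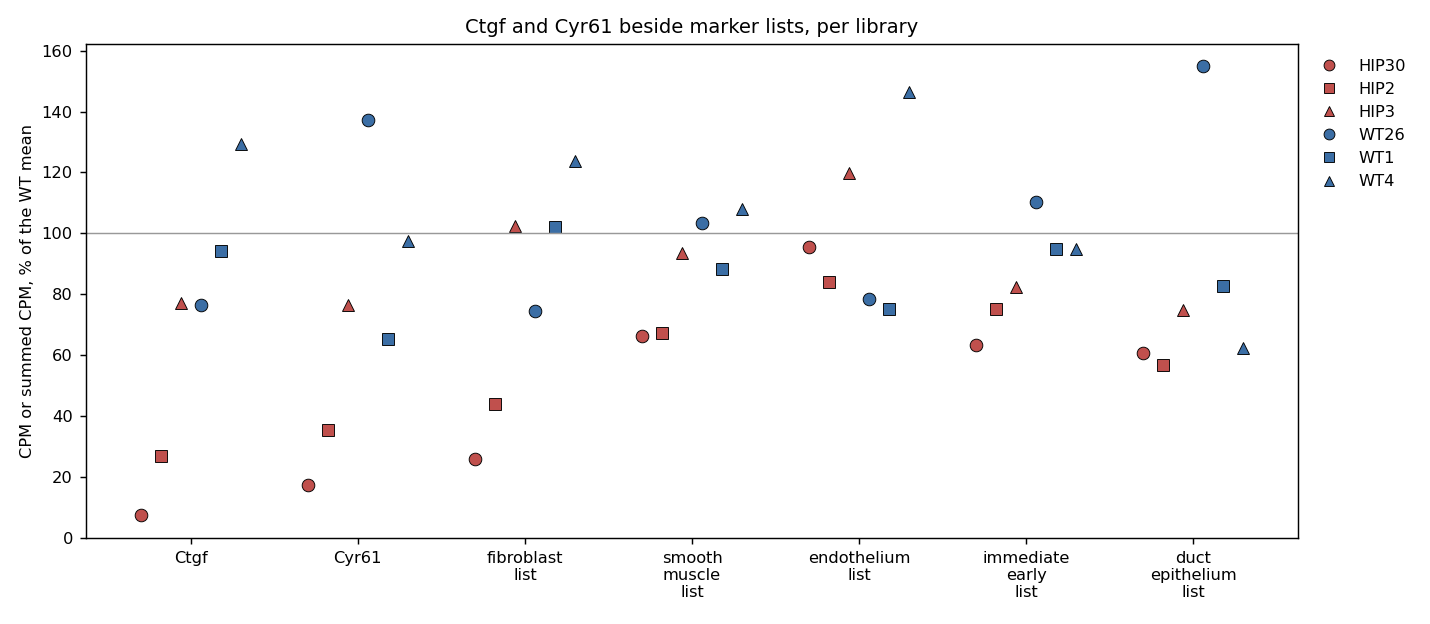
CPM of Ctgf and Cyr61 and summed CPM of 5 marker lists in each library, as a percentage of the WT mean (grey line, 100), with HIP libraries in red and WT libraries in blue. HIP30 and HIP2 are lowest for Ctgf (7.5% and 26.8%), Cyr61 (17.3% and 35.4%) and the fibroblast list (25.9% and 43.8%), whereas HIP3 lies at 77.1%, 76.4% and 102.5%. HIP30 and HIP2 are also lowest for the smooth muscle, immediate early and duct epithelium lists.

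The other targets, Ankrd1 and Amotl2, did not share this pattern. Ankrd1, a nuclear and sarcomeric ankyrin repeat protein best known from stretched heart muscle, had few reads. Its level was 1.78, 1.43 and 0.419 CPM in HIP30, HIP2 and HIP3, against 0.341, 0.745 and 3.35 CPM in WT26, WT1 and WT4. Thus HIP30 and HIP2 stood above WT26 and WT1, and the widest spread was within WT, over 2.80 on the log2 scale. The 6 reads of WT26 give an exact 95% Poisson interval of 0.125 to 0.743 CPM and the 53 reads of WT4 one of 2.51 to 4.38 CPM. The log2 difference was 0.002 ± 0.90 (SE) with an interval of -2.07 to 2.07, which includes changes of 4-fold in both directions. Its sign turned in 7 of 18 other settings.

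Amotl2, an angiomotin-like junction protein that binds YAP and holds it back, had a narrow range of levels. It had 91.1, 70.6 and 59.8 CPM in HIP30, HIP2 and HIP3, against 63.4, 57.6 and 72.0 CPM in WT26, WT1 and WT4. HIP30 was the highest of the 6 libraries and the other 5 overlapped. The log2 difference was 0.11 ± 0.19 (SE by limma, adjusted p = 0.925), and its interval of -0.32 to 0.54 excludes differences of the size estimated for Ctgf and Cyr61. Without HIP30 it was -0.0067.

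The coactivators were present in each library and overlapped between the groups. Yap1 had 71.1, 64.3 and 39.4 CPM in HIP30, HIP2 and HIP3, against 51.9, 42.6 and 49.2 CPM in WT26, WT1 and WT4. HIP30 and HIP2 were the highest libraries and HIP3 the lowest. Yap1 averaged 58.3 ± 16.7 CPM in HIP and 47.9 ± 4.81 CPM in WT (SD, n = 3 each), a log2 difference of 0.17 with an interval of -0.38 to 0.72. Wwtr1 had 31.2, 33.2 and 34.4 CPM in HIP30, HIP2 and HIP3, against 34.4, 40.6 and 33.9 CPM in WT26, WT1 and WT4. Its libraries lay close together apart from WT1, and the log2 difference was -0.21 with an interval of -0.71 to 0.29. Neither gene passed the test (limma, adjusted p = 0.897 for Yap1 and 0.846 for Wwtr1).

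Tead1, the DNA-binding partner of YAP and TAZ, had the lowest unadjusted p of the 6 components. It had 90.6, 76.6 and 62.7 CPM in HIP30, HIP2 and HIP3, against 50.3, 44.8 and 65.7 CPM in WT26, WT1 and WT4. HIP30 and HIP2 lay above each WT library, and HIP3 lay just below WT4 in CPM and just above it after TMM scaling. Tead1 averaged 76.6 ± 14.0 CPM in HIP and 53.6 ± 10.8 CPM in WT (SD, n = 3 each). The log2 difference was 0.44 ± 0.20 (SE) with an interval of -0.013 to 0.90 (limma, unadjusted p = 0.0555, adjusted p = 0.691). It was positive in all 19 other settings, between 0.34 and 0.66.

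The LATS kinases and merlin overlapped between the groups in CPM, and their 95% intervals lay within 1 log2 unit of 0. Lats1 had 357, 406 and 456 CPM in HIP30, HIP2 and HIP3, against 375, 420 and 412 CPM in WT26, WT1 and WT4. The HIP libraries spanned the WT libraries on both sides. The log2 difference was -0.066 with an interval of -0.51 to 0.38, that is between 0.701 and 1.30 times the WT level, and scaling by library totals alone turned its sign. Lats2 had 51.3, 48.3 and 46.4 CPM in HIP30, HIP2 and HIP3, against 57.6, 51.8 and 51.1 CPM in WT26, WT1 and WT4. In CPM the highest HIP library met the lowest WT library, and after scaling the HIP libraries lay within 0.0095 of each other on the log2 scale and below each WT library. The difference was small, -0.21 with an interval of -0.63 to 0.21, and did not pass (limma, adjusted p = 0.812). Nf2 had 153, 162 and 134 CPM in HIP30, HIP2 and HIP3, against 133, 148 and 136 CPM in WT26, WT1 and WT4. These ranges overlapped nearly fully, with a log2 difference of 0.031 and an interval of -0.35 to 0.41, and the difference was -0.031 without HIP2 and -0.029 without WT4.

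**Figure D3:**
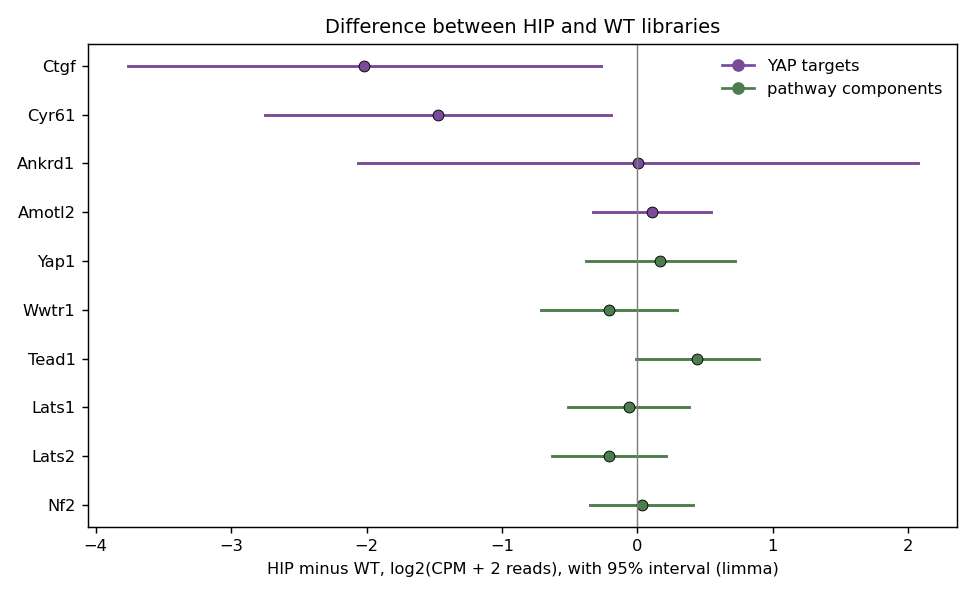
Log2 difference of each gene (HIP minus WT, limma) with its 95% interval, YAP targets in purple and pathway components in green, the zero line in grey. The intervals of Ctgf (-3.76 to -0.27) and Cyr61 (-2.75 to -0.19) lie below 0 before any adjustment, and the others include 0.

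Counted over the 10 genes, 5 differences were negative and 5 positive, beside 48.9% negative over all genes tested. Of the 10 genes 0 passed the adjusted threshold, by limma or by limma-voom, and 2 had an unadjusted p under 0.05, both with the lower level in HIP, where 3.26% of all genes had the lower level at that p and 6.54% either level. The median size of the difference without its sign was 0.19 for the 6 components and 0.79 for the 4 targets, beside 0.25 over all genes. The 0.79 describes no single target, as it falls between 2 small differences (Ankrd1 0.002 and Amotl2 0.11) and 2 large ones (Cyr61 -1.47 and Ctgf -2.02). After TMM scaling the groups did not overlap for 3 of the 10 genes, Ctgf, Tead1 and Lats2, where 9.54% of all genes did not overlap, 4.27% with the lower and 5.27% with the higher level in HIP. In CPM on library totals the number was 0 of 10, where 10% of all genes did not overlap.

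Other genes of the pathway were counted from 5 lists, none of which held a gene past the adjusted threshold (limma, 0 of 46 tested genes). At an unadjusted p under 0.05 there were 4 genes, F3, Myof and Ajuba with the lower and Tead2 with the higher level in HIP, beside 6.54% of all genes. Of 13 tested genes of a common YAP and TEAD target signature other than the 4 targets above, 8 had a negative and 5 a positive difference, with a median of -0.18. F3, tissue factor, the starter of blood coagulation, had 17.1, 55.9 and 76.5 CPM in HIP30, HIP2 and HIP3, against 217, 182 and 73.0 CPM in WT26, WT1 and WT4. HIP30 was again the lowest library, but WT4 lay below HIP3. The log2 difference of F3 was -1.84 ± 0.64 (SE by limma, unadjusted p = 0.0210). Myof, a membrane repair protein of the ferlin family, had 225, 375 and 519 CPM in HIP30, HIP2 and HIP3, against 923, 787 and 433 CPM in WT26, WT1 and WT4, a log2 difference of -1.02 ± 0.42 (SE by limma, unadjusted p = 0.0407). Nt5e, the ectonucleotidase CD73, had the third lowest p of this list and the opposite sign, at 141 ± 34.1 CPM in HIP and 91.7 ± 37.7 CPM in WT (SD, n = 3 each). Without HIP30 the log2 difference was -1.15 for F3 and -0.65 for Myof. The signature thus held genes of both signs.

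Among the partners and inhibitors of YAP, Tead2, a TEAD factor best known from embryonic and progenitor cells, had 12.6, 9.07 and 7.002 CPM in HIP30, HIP2 and HIP3, against 2.22, 3.27 and 5.94 CPM in WT26, WT1 and WT4. Each HIP library lay above each WT library. The log2 difference of Tead2 was 1.30 ± 0.46 (SE by limma, unadjusted p = 0.0215, adjusted p = 0.691). Ajuba, a LIM protein that restrains LATS kinases at strained junctions, had 26.02, 31.6 and 32.0 CPM in HIP30, HIP2 and HIP3, against 68.0, 51.8 and 35.3 CPM in WT26, WT1 and WT4. Each HIP library lay below each WT library, by little in the case of WT4. After TMM scaling the groups did not overlap for 2 of the 46 tested pathway list genes, Tead2 and Ajuba. The share over all genes was 9.54%. The log2 difference of Ajuba was -0.82 ± 0.30 (SE by limma, unadjusted p = 0.0279, adjusted p = 0.691). Vgll4, which competes with YAP for TEAD factors, had 49.7 ± 4.87 CPM in HIP and 37.8 ± 7.42 CPM in WT (SD, n = 3 each), a log2 difference of 0.34. All 4 of F3, Myof, Ajuba and Tead2 differed more between HIP30 and WT26 (-3.84, -2.22, -1.57 and 2.26) than among the libraries numbered 1 to 4 (-0.83, -0.42, -0.44 and 0.82). Of the 7 tested genes of this list 3 had a positive and 4 a negative difference.

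The kinases and adaptors around LATS had no member with an unadjusted p under 0.05. Of 13 tested genes 6 had a positive and 7 a negative difference, over a range of -0.35 to 0.43 on the log2 scale. Mob1a, the LATS coactivator, had 257 ± 59.8 CPM in HIP and 311 ± 74.4 CPM in WT (SD, n = 3 each). Wwc2, a KIBRA family scaffold, had 34.0 ± 9.62 CPM in HIP and 25.1 ± 12.5 CPM in WT, and Taok3, a kinase that can act upstream, 82.5 ± 6.46 CPM in HIP and 68.0 ± 18.2 CPM in WT. Of 10 tested polarity and cadherin genes 3 had a positive and 7 a negative difference, again none with an unadjusted p under 0.05. Cdh1, E-cadherin, averaged 2211 ± 267 CPM in HIP and 2719 ± 412 CPM in WT, Ctnna1, the catenin that links it to actin, 594 ± 18.9 CPM in HIP and 741 ± 115 CPM in WT, and the giant cadherin Fat1 1444 ± 255 CPM in HIP and 1767 ± 279 CPM in WT. The other CCN family genes had few reads, with at most 2.18 CPM for Nov and 16.2 CPM for Wisp2 in any library. Nov, Wisp2 and Wisp3, the 3 that could be tested, had positive differences of 0.44, 0.34 and 0.95 and standard errors of 0.96, 0.73 and 0.84, and the sign of both Nov and Wisp2 turned without WT26, that of Nov also without HIP30.

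**Figure D4:**
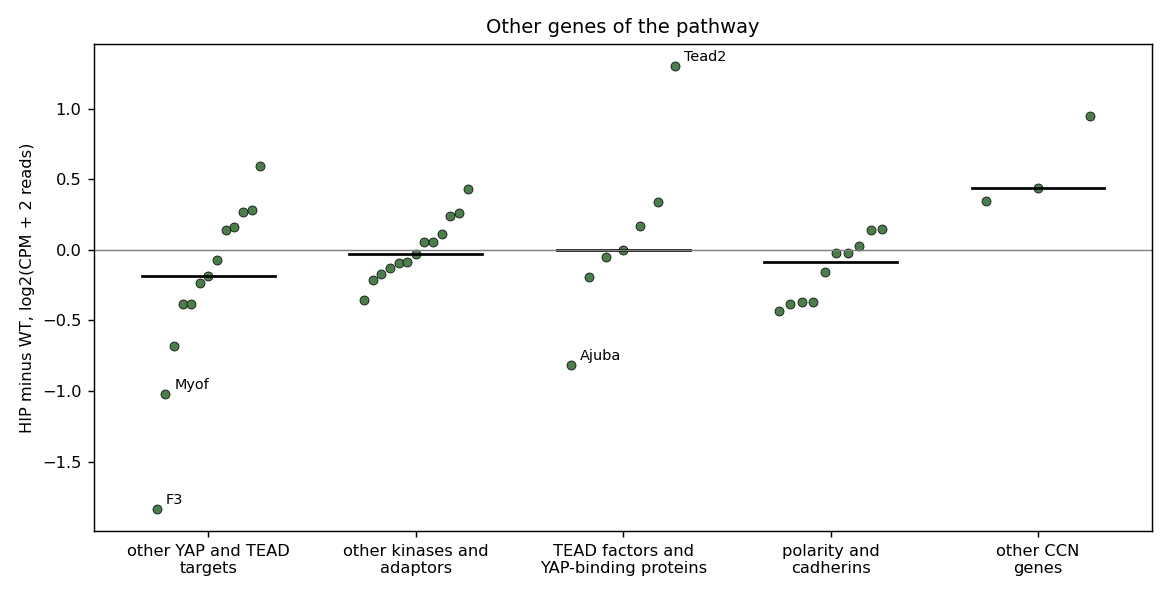
Log2 difference (HIP minus WT, limma) of the tested genes in 5 lists of other Hippo pathway genes, 1 point per gene, with a bar at the median of each list. F3, Myof and Ajuba (-1.84, -1.02 and -0.82) and Tead2 (1.30) are labelled as the genes with an unadjusted p under 0.05, and the kinases and adaptors lie between -0.35 and 0.43.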

How the data were processed

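RNA sequencing of laser-captured duct glands was compared between 3 HIP and 3 WT libraries, grouped by their titles. STAR, HTSeq, edgeR, limma and the build rn5 are named without versions or order, per the submitters' processing notes, and nothing says whether strand was used, so antisense and overlapping genes could not be separated. The authors deposited log2 CPM values with a small prior, 1 table per library. Taking off this prior (0.25 reads) gave whole reads within 0.1 for 100% of the deposited log2 values. CPM in the text is on library totals. The 4 rows whose symbol is repeated were left out.

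Differences come from limma 3.58.1 (R 4.3.3, intensity trend, two-sided) on log2 of TMM-scaled CPM plus 2 reads (0.122 CPM). TMM factors ran from 0.933 to 1.09, with trims of 30% and 5%. Tested were 12102 genes with 15 reads in all and, in 3 libraries, a CPM worth 10 reads of the median one (0.61). The threshold was 0.05 after Benjamini-Hochberg adjustment over all of them. The steps were tested on simulated data. The members and lists were chosen with earlier results of these data known. Named are the 10 members, the 3 genes of each pathway list with the lowest unadjusted p, the 3 patterns nearest to Ctgf, Cyr61 and Yap1 (1 of those nearest to Ctgf is not reported here), and defining markers of cell types. Promoters are RefSeq sequences of GRCr8, not the build of the files, and serve only for their letters. Alternatives covered scaling, filter, pseudocount, limma-voom, the trend, a term for title numbers and each library left out. Figures were drawn with matplotlib 3.10.9.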

Additional observations from a re-analysis of the deposited data

How the results depend on the processing

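No gene, member or listed pathway gene passed the adjusted threshold in any of the 18 other settings that gave p-values. No paired analysis was possible because the HIP and WT libraries share no title number. With each library left out in turn, the number of members at an unadjusted p under 0.05 ran from 0 to 3 (2 with all libraries), of all genes from 227 to 1781 (792 with all), and of pathway list genes from 0 to 7 (4 with all). The member count was 0 without HIP2, 3 without HIP3 and 1 without each of the others. The pathway count was 0 without WT1 or WT26, 1 without HIP2 or HIP30 and 7 without WT4. Over all genes the count was 227 without HIP2, 264 without HIP30, 314 without WT1 and 326 without WT26, but 1557 without WT4 and 1781 without HIP3, where the smallest adjusted p of limma was 0.0873. Among the libraries numbered 1 to 4 the count was 1 for members, 149 for all genes and 0 for the pathway lists, where fewer libraries enter, and without the intensity trend the member count was 0. Some small differences turned sign. Among the libraries numbered 1 to 4 Ankrd1 was -0.93, Amotl2 -0.00034, Lats1 0.034, Nov -0.91 and Wisp2 -0.39. Ankrd1 was -0.016 with median-of-ratios factors and -0.050 with 10 reads added, and Lats1 was 0.0078 with library totals or the deposited values. With a library left out, Ankrd1 ran from -0.62 to 0.78, Amotl2 from -0.0067 to 0.205, Lats1 from -0.20 to 0.071, Nf2 from -0.031 to 0.099, Nov from -0.34 to 1.01 and Wisp2 from -0.24 to 1.18. The cause was not tested. Ankrd1 had 6 to 53 reads per library, the fewest in WT26 and the most in WT4. The exact Poisson intervals of WT26 (0.125 to 0.743 CPM) and WT4 (2.51 to 4.38 CPM) do not meet. They cover the counting of reads only and not the sampling of molecules before sequencing. Over all genes 2822 were without a read in WT26 and 672 in WT4.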

Other observations

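Among 10008 tested genes with a mean of at least 5 CPM, the profiles nearest to Ctgf over the 6 libraries, by the root mean square difference of log2 values after each gene's own mean is taken off, included Mns1 (0.161) and Scn2a1 (0.281). Cyr61 stood 91st by likeness to Ctgf and Ctgf 332nd by likeness to Cyr61, both at 0.621.

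The profiles nearest to Cyr61 were Rad51ap1 (0.118), Rasgrf1 (0.166) and Aox3l1 (0.182). Rad51ap1, a DNA repair protein of dividing cells, had 3.70, 5.96 and 15.3 CPM in HIP30, HIP2 and HIP3 and 24.9, 13.3 and 20.1 CPM in WT26, WT1 and WT4. The profiles nearest to Yap1 were Anapc7 (0.0508), Atxn10 (0.0548) and Pafah1b3 (0.0656), while Ctgf and Cyr61 were among the farthest from it, at 1.64 and 1.21. Amotl2 lay nearer to Yap1 than any other of the 9 remaining members, at 0.157. It stood only 235th of the 10008 genes by likeness to Yap1.

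In the promoter windows of the pathway lists, GGAATG or CATTCC was found for 2 of 12 genes of the target signature (Nuak2 and Ptpn14), 4 of 9 TEAD factors, cofactors and YAP-binding proteins (Ajuba, Vgll3, Vgll4 and Wtip), 3 of 12 kinases and adaptors (Mob1b, Sav1 and Wwc2), 0 of 5 polarity and cadherin genes and 0 of 1 CCN gene, where 12.1% of all windows held it.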
